A study of Mus musculus with 2 samples.

Results

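Ephrins, Slits, repulsive guidance molecules (RGMs) and draxin are axon guidance cues, which tell growing axons and migrating neurons where to go, and Eph and Robo proteins are receptors for them. The genes of these families were chosen by symbol: all Eph receptor genes (Epha and Ephb), ephrin genes (Efna and Efnb), Slit1 to Slit3, Robo1 to Robo4, Rgma, Rgmb and Draxin. They numbered 32 of the 32285 genes in each of the 2 count matrices, and they comprised 14 Eph receptors, 8 ephrins, 4 Robo receptors, 3 Slits, 2 RGMs and Draxin. The 2 libraries were made from nuclei of whole mouse cerebellum at postnatal day 1, each from 12 pooled cerebella of both sexes, with a 10x Genomics kit that reads the 3' end of transcripts. The control library came from littermates without Cre, labelled Tox3f/f, though the name given to the library also allows Tox3f/+. The other library was labelled cKO, for conditional knockout, with the genotype Nestin-cre;Tox3f/f. Tox3 encodes an HMG-box chromatin protein, f marks an allele with loxP sites, and Nestin-Cre removes the flanked part in neural precursors and so in their progeny, neurons and glia alike. The comparison asks how levels of guidance genes differ between the cerebella with and without Cre.

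Eph receptors are receptor tyrosine kinases that bind ephrins on the surface of neighbouring cells, and both partners can signal. EphA receptors mostly bind ephrin-A ligands, which are held in the membrane by a lipid anchor, and EphB receptors mostly bind ephrin-B ligands, which span it. Slits are secreted ligands of Robo receptors, RGMs bind neogenin, and draxin is a secreted protein that binds Dcc. In the developing cerebellum Eph receptors and ephrins are known for banded patterns among Purkinje cells, and Slits and Robos for guiding precerebellar and cerebellar neurons. Granule neuron progenitors (GNPs) divide in the external granule layer at this age and give rise to granule neurons.

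The deposited matrices held 4857 barcodes and 22325208 unique molecular identifiers (UMIs, 1 per counted transcript) for control and 6946 barcodes and 33726533 UMIs for the cKO-labelled library. After filtering 4667 and 6555 nuclei were kept, with medians of 3978 and 4025 UMIs, and 9 barcodes occurred in both libraries. Nuclei were clustered without the guidance genes, and clusters were named from marker genes with the ending "-like". GNP-like nuclei numbered 512 in control and 116 in the cKO-labelled library, which was 11.0% and 1.77% of the kept nuclei. Tox3 itself stood at 104 CPM (the share of a gene in all UMIs of the nuclei summed, times 1000000) in control and 118 CPM in the cKO-labelled library, and at 253 and 539 CPM in GNP-like nuclei. A UMI count of a gene says nothing of the exon it came from, so it gives no check of the deletion. Each group was 1 library, so no test between the conditions was possible, and every interval given here (95%, exact Poisson for a level, conditional binomial for a ratio) covers counting error only. A gene was taken as different where its CPM ratio, the cKO-labelled library over control, was at least 1.5 or its inverse with at least 50 UMIs over both libraries. Nuclear UMIs from the 3' end are not scaled by gene length, so levels are compared between classes and libraries for 1 gene at a time.

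The letters upstream of 4 of the genes are shown as examples. In GNP-like nuclei Epha3 and Epha8 were higher and Epha6 and Draxin lower in the cKO-labelled library. Each run is the 250 bases before the RefSeq transcript start in GRCm38.p6, read 5′ to 3′ on the minus strand, on which all 4 genes lie. Capitals mark CAGCTG and CAGATG, E-boxes that proneural basic helix-loop-helix factors are known to bind, searched on both strands.
Epha3 (chr16:63864176-63864425): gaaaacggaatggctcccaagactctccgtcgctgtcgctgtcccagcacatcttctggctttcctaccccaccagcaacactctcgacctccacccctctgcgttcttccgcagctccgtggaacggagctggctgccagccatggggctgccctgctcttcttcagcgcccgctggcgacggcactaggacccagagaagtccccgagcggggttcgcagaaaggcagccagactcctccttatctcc
Epha8 (chr4:136956817-136957066): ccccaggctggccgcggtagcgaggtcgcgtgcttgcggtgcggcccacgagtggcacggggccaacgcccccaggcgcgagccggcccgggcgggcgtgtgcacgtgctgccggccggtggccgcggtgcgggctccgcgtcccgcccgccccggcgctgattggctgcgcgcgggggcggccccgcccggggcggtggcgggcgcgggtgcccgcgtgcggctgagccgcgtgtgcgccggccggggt
Epha6 (chr16:60605532-60605781): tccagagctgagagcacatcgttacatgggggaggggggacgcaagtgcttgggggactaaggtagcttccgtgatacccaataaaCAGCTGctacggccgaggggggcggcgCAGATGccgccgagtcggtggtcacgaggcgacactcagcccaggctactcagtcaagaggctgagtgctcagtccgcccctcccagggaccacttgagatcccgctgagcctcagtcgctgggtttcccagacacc
Draxin (chr4:148130699-148130948): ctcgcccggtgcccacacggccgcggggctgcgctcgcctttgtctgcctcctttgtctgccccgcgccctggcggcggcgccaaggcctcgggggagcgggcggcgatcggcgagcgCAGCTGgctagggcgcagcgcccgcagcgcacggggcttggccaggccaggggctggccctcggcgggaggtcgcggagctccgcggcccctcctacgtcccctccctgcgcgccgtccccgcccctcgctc
Epha6 held 1 CAGCTG and 1 CAGATG, and Draxin 1 CAGCTG. Among the guidance genes not shown, Epha10, Ephb3, Robo2 and Robo4 held CAGCTG, and Efna3 and Epha1 held CAGATG. Of these only Robo2 was past the 1.5-fold threshold in GNP-like nuclei, where it was lower. Epha5, Epha7 and Slit2, which were also lower there, held neither. Of all 32851 RefSeq starts in the table, 4271 held CAGCTG and 4745 (14.4%) held CAGATG in the same window, and of the 36 starts matched to 29 of the guidance genes, 6 held CAGCTG and 3 held CAGATG. The matches are a description of letters and carry no claim of a bound site.

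Epha6 and Epha3 are neighbours on chromosome 16, and so are Robo1 and Robo2. In GRCm38, Epha6 spans 59653483 to 60605531 and Epha3 spans 63543534 to 63864175, both on the minus strand, with 4 annotated protein-coding genes (Nsun3, Arl13b, Stx19 and Pros1) in the 2938002 bases between them. Robo1 (72308306 to 73046095, plus strand) and Robo2 (73891839 to 74411825, minus strand) have no annotated protein-coding gene in the 845743 bases between them. Ephb2 and Epha8 lie 93430 bases apart on chromosome 4, and Efna1, Efna3 and Efna4 are adjacent on chromosome 3. By the annotation Slit2, Slit3 and Ephb1 each overlap another gene on the same strand (Gm20475, Gm12122 and Gm29388), which could affect their counts.

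The genes differed in which class of nuclei held their highest level. For 19 of the 29 with at least 50 UMIs in named classes that class was the same in both libraries. The matching share among all genes was not worked out, so this count describes these genes only. Among EphA receptors, Purkinje cell-like nuclei were highest for Epha4, Epha5 and Epha7. Epha5 stood there at 1321 CPM in control and 1470 CPM in the cKO-labelled library, 2.61-fold and 2.15-fold above the next class, the glutamatergic cerebellar nuclei neuron-like nuclei. Epha4 stood at 428 and 446 CPM in Purkinje cell-like nuclei, and its next class, which was cerebellar nuclei neuron-like in control and oligodendrocyte lineage-like in the other library, reached 159 and 112 CPM. Epha7 stood at 593 and 602 CPM in Purkinje cell-like nuclei, against 252 and 227 CPM in the next class. Epha6 was highest in unipolar brush cell-like nuclei at 905 and 970 CPM, with Purkinje cell-like nuclei next at 766 and 860 CPM. Epha10, a receptor thought to lack kinase activity, was highest in cerebellar nuclei neuron-like nuclei at 194 and 173 CPM, with GABAergic interneuron-like nuclei at 146 and 126 CPM. In each of these 5 pairs the 95% interval of the ratio between the 2 classes lay above 1 in both libraries.

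Epha3 and Epha8 had different highest classes in the 2 libraries. In control Epha3 was highest in granule neuron-like nuclei at 337 CPM, and in the cKO-labelled library in GNP-like nuclei at 874 CPM. Epha8 was highest in interneuron-like nuclei of control at 42.2 CPM, where the interval of its ratio to Purkinje cell-like nuclei (32.6 CPM) included 1, and in GNP-like nuclei of the other library at 151 CPM. Of the EphB receptors, Ephb1 was highest in unipolar brush cell-like nuclei at 858 and 835 CPM. Ephb2 was highest in GNP-like nuclei at 526 and 606 CPM, and Ephb4 in Bergmann glia-like nuclei at 31.2 and 22.0 CPM. Bergmann glia are the radial astroglia of the Purkinje cell layer, along whose fibres granule neurons migrate.

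Of the ephrins, Efna5, an ephrin-A that binds most EphA receptors, was highest in granule neuron-like nuclei at 917 and 622 CPM. Efnb2, a transmembrane ephrin, was highest in Bergmann glia-like nuclei at 98.1 and 98.8 CPM, and Efnb3 in cerebellar nuclei neuron-like nuclei at 43.9 and 49.8 CPM. In the cKO-labelled library the interval of the Efnb3 ratio to the next class, unipolar brush cell-like nuclei at 38.9 CPM, included 1. Efna2, Efna3, Efna4 and Efnb1, and the receptors Epha1 and Ephb3, had no class that stood above its next class beyond the counting interval in either library. Ephb6, a receptor without kinase activity, was highest in interneuron-like nuclei in both libraries, and there too the interval to the next class included 1.

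Among Slits and Robos, Robo1 was highest in cerebellar nuclei neuron-like nuclei at 1668 and 1854 CPM, with oligodendrocyte lineage-like nuclei next at 808 and 785 CPM. Robo2 was highest in GNP-like nuclei of control at 3139 CPM and in Purkinje cell-like nuclei of the other library at 2136 CPM. Slit2 was highest in Purkinje cell-like nuclei (457 and 474 CPM), followed by cerebellar nuclei neuron-like nuclei (373 and 321 CPM). Slit3 was highest in granule neuron-like nuclei at 1016 and 1127 CPM, and Slit1 in cerebellar nuclei neuron-like nuclei at 97.4 and 94.4 CPM. Robo3, a receptor known for setting when axons cross the midline, reached 32.0 and 17.0 CPM in interneuron-like nuclei. An unnamed cluster of 54 and 100 nuclei, cluster 19 with Zfhx3 among its leading genes, held Robo1 at 3157 and 3551 CPM, above any named class. Rgma was highest in Bergmann glia-like nuclei at 460 and 597 CPM, 3.96-fold and 5.10-fold above interneuron-like nuclei. Draxin was highest in GNP-like nuclei of control at 344 CPM, and in Bergmann glia-like nuclei of the other library at 125 CPM, where the interval of its ratio to unipolar brush cell-like nuclei (103 CPM) included 1. Rgmb was highest in cerebellar nuclei neuron-like nuclei of control at 63.0 CPM and in GNP-like nuclei of the other library at 57.4 CPM, the latter on 25 UMIs and not clear of interneuron-like nuclei (48.9 CPM).

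**Figure D1:**
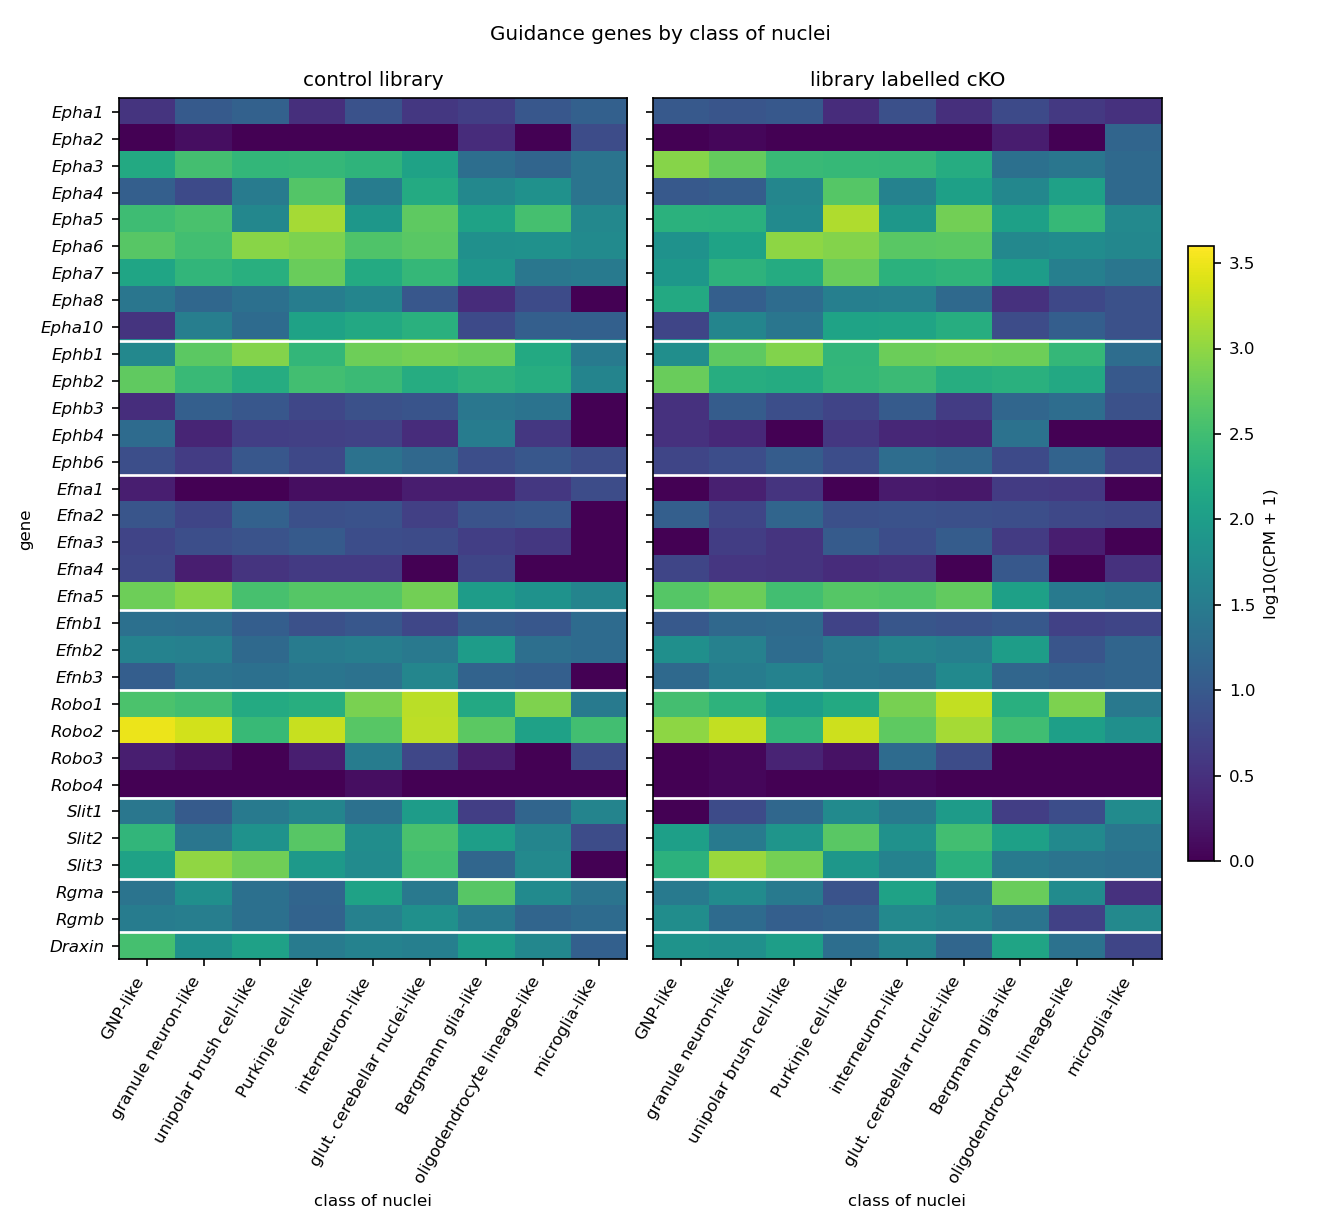
Level of each of the 32 guidance genes (rows, grouped by role with white lines) in 9 classes of nuclei (columns) of the control library and the cKO-labelled library, as log10(CPM + 1). Epha5 is brightest in the Purkinje cell-like column of both libraries, while in the GNP-like column Epha3 and Epha8 are brighter, and Epha6, Draxin and Robo2 darker, in the cKO-labelled library. Colours compare 1 gene across columns and libraries, not genes with each other.

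Purkinje cell-like nuclei formed 2 clusters that differed in guidance genes in both libraries. Cluster 6 held 174 control nuclei and 397 of the cKO-labelled library, and cluster 10 held 118 and 322. Ebf2, a transcription factor found in a subset of Purkinje cells, stood at 168 and 256 CPM in cluster 6 and at 1655 and 1709 CPM in cluster 10. Epha5 stood at 2081 CPM in cluster 6 of control and 214 CPM in cluster 10, 9.73-fold lower (8.57 to 11.1). In the cKO-labelled library the levels were 2393 and 352 CPM, 6.80-fold lower (6.36 to 7.28). Epha3 was 4.54-fold lower in cluster 10 of control (364 and 80.2 CPM) and 6.57-fold lower in that of the other library (413 and 62.9 CPM). Epha7 was 3.86-fold and 2.36-fold lower there, and Slit2 2.49-fold and 2.83-fold lower. Robo2 ran the other way, at 1305 CPM in cluster 6 and 2930 CPM in cluster 10 of control and at 1312 and 3135 CPM in the other library. Epha4 was 1.91-fold and 1.52-fold higher in cluster 10, Epha10 1.75-fold and 2.75-fold higher, and Efna5 1.65-fold and 1.64-fold higher.

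Of the 23 genes with at least 50 UMIs in these clusters, 18 had the higher level in the same cluster in both libraries. The 95% intervals lay on 1 side of equal levels in both libraries for 13 of them, 4 higher in cluster 10 and 9 higher in cluster 6. The matching shares among all genes were not worked out. These counts therefore do not show whether guidance genes differed between the clusters more often than other genes. Epha6, by contrast, was level in control (758 and 777 CPM) and 1.504-fold lower in cluster 10 of the cKO-labelled library. These clusters were drawn from the same nuclei, so the values describe them and test nothing, although the guidance genes took no part in the clustering.

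**Figure D2:**
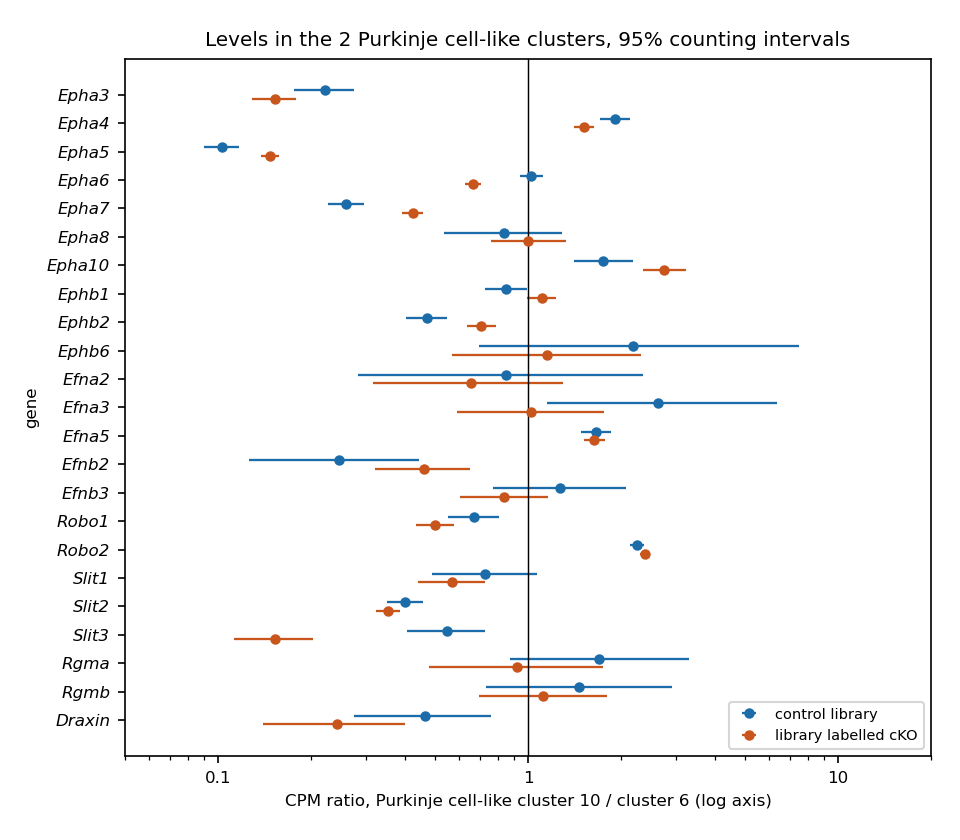
Ratio of the CPM in Purkinje cell-like cluster 10 to that in cluster 6 (log axis), with 95% counting intervals, for 23 guidance genes in the control library (blue) and the cKO-labelled library (orange). Epha5 lies furthest to the left in control at 0.103, and Robo2 lies near 2.24 and 2.39 with short intervals.

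Over whole libraries few guidance genes differed between control and the cKO-labelled library. Of the 32 genes, 29 had at least 50 UMIs, 0 were higher past 1.5-fold and 2 were lower, where 5.26% of all genes with that depth were higher and 5.81% lower. Draxin stood at 93.0 CPM in control and 50.3 CPM in the other library (ratio 0.541, 0.506 to 0.579), and Efnb1 at 14.4 and 9.21 CPM (ratio 0.638, 0.540 to 0.754). The largest ratio was that of Epha4, at 87.9 and 125 CPM (1.42, 1.34 to 1.504). The median log2 ratio of the 29 genes was 0.00, and that of all genes -0.02. In bulk values of this kind fewer nuclei of a class and less RNA per nucleus cannot be told apart. With each class weighted in both libraries by its mean UMI share over the 2, Epha3 was higher (224 and 349 CPM, ratio 1.56). Ephb4 (5.80 and 3.21 CPM) and Robo3 (7.37 and 4.09 CPM) were lower, against 2.27% higher and 3.15% lower among all genes. So weighted, Draxin stood at 71.9 and 50.4 CPM, a ratio of 0.701. Epha2 (5 and 12 UMIs), Efna1 (12 and 29 UMIs) and Robo4 (2 and 2 UMIs) were too sparse to compare.

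In GNP-like nuclei the guidance genes differed more. Of 17 genes with at least 50 UMIs, 5 were higher and 7 lower in the cKO-labelled library. Of all genes with that depth 9.05% were higher and 15.8% lower. These nuclei held 2041206 UMIs in control and 435741 in the other library, so the minimum was met mostly through control. Genes lower in the cKO-labelled library therefore met it more easily than genes higher there, among all genes too. The median size of the difference, without its sign, was 0.82 on the log2 scale for the 17 genes and 0.31 for all genes. Epha3 stood at 151 CPM in control (308 UMIs) and 874 CPM in the cKO-labelled library (381 UMIs), 5.79-fold higher (4.97 to 6.76). Epha8 stood at 24.99 CPM (51 UMIs) and 151 CPM (66 UMIs), 6.06-fold higher (4.14 to 8.92). Epha6, their relative in the same receptor class, went the other way, at 461 CPM in control (941 UMIs) and 66.6 CPM in the other library (29 UMIs), 6.93-fold lower (4.79 to 10.4). So the neighbours Epha6 and Epha3 differed in opposite directions. Of the 4 genes between them only Stx19 had 50 UMIs, with 47 and 9, and its ratio was 0.897 (0.387 to 1.85).

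Among the other receptors in GNP-like nuclei, Robo2 stood at 3139 and 959 CPM, 3.27-fold lower (2.96 to 3.62), while Robo1 differed by less than the threshold, at 385 and 333 CPM (ratio 0.865, 0.720 to 1.03). Epha7 (128 and 80.3 CPM, 1.59-fold lower) and Epha5 (303 and 195 CPM, 1.55-fold lower) were just past the threshold. Ephb2 stood at 526 and 606 CPM and Ephb1 at 47.5 and 59.7 CPM, neither past it.

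Of the ligands, Draxin stood at 344 CPM in control (703 UMIs) and 68.8 CPM in the other library (30 UMIs), 5.002-fold lower (3.47 to 7.47). Slit2 was 2.13-fold lower (230 and 108 CPM, 1.58 to 2.94). Slit1 had 52 UMIs in control and 0 in the other library, so it met the minimum of 50 UMIs through control alone. Its ratio was 0, with an exact upper limit of 0.344. That limit covers counting error only and leaves out the choice of genes by their UMIs. After thinning each nucleus to 1000 UMIs the ratio was again 0, but its upper limit was 1.00. Slit3 was 1.77-fold higher (117 and 207 CPM, 1.37 to 2.27). Rgmb (31.8 and 57.4 CPM, 1.80-fold, 1.09 to 2.90) and Efnb2 (38.7 and 62.0 CPM, 1.60-fold, 0.994 to 2.51) were higher on 25 and 27 UMIs, and the interval of Efnb2 included equal levels. Both lay below control after thinning each nucleus to 1000 UMIs, with ratios of 0.777 for Rgmb and 0.464 for Efnb2. Efna5 stood at 635 and 441 CPM (ratio 0.694) and Rgma at 23.5 and 29.8 CPM. The remaining 15 genes had fewer than 50 UMIs in these nuclei. When GNP-like nuclei were chosen 1 by 1 from their marker sums instead of by cluster (591 and 225 nuclei, where 13.3% of all gated nuclei had a second class within 0.32 of the first on the log2 scale), the ratio was 2.50 for Epha3, 2.60 for Epha8, 0.260 for Epha6, 0.241 for Draxin, 0.280 for Robo2 and 0.492 (0.213 to 1.01) for Slit1. Slit2 (0.712), Epha7 (0.971), Slit3 (1.24), Rgmb (1.17) and Efnb2 (1.20) then fell short of the threshold.

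**Figure D3:**
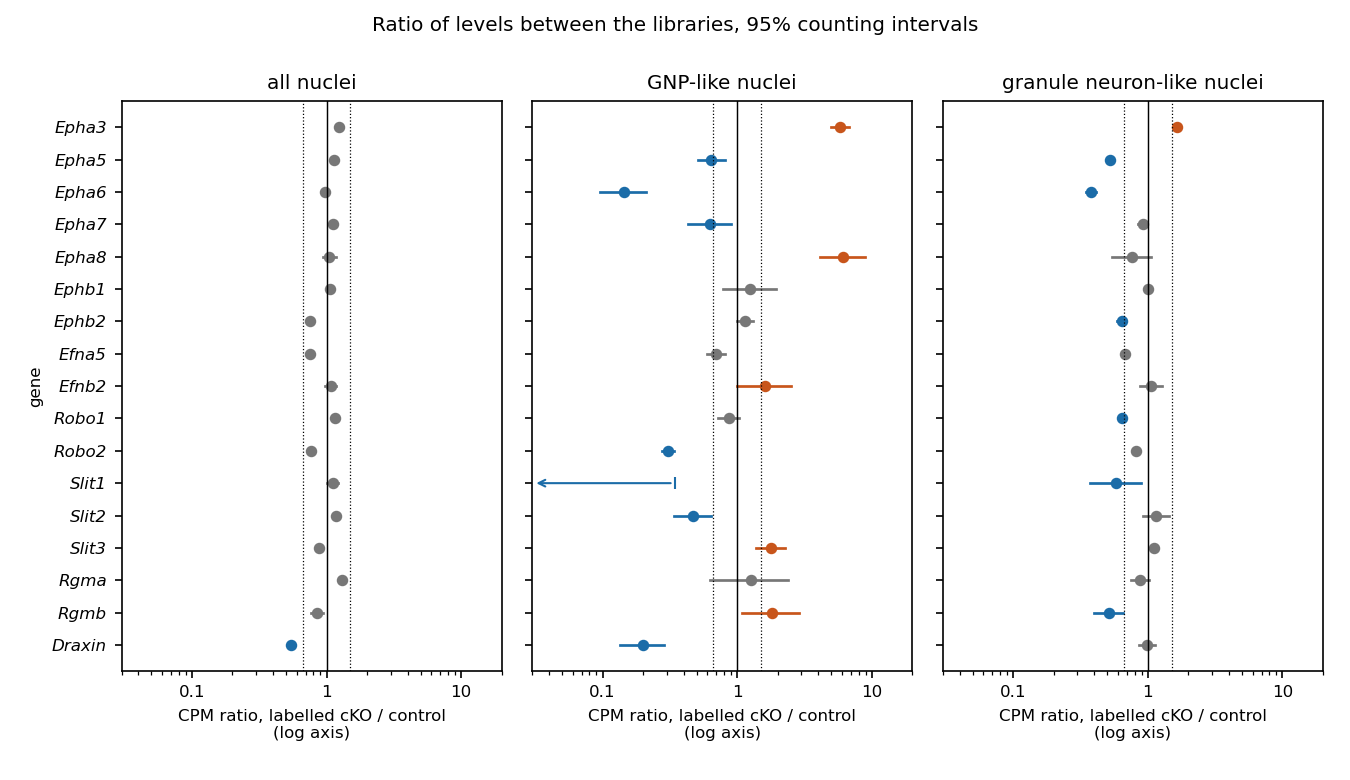
CPM ratio of the cKO-labelled library to control (log axis) with 95% counting intervals, in all nuclei, GNP-like nuclei and granule neuron-like nuclei, for the 17 guidance genes with at least 50 UMIs in GNP-like nuclei. Dotted lines mark 1.5-fold, orange points lie above it and blue points below it, and the arrow for Slit1 runs left from the upper limit of 0.344. In GNP-like nuclei Epha3 and Epha8 lie at 5.79 and 6.06 and Epha6, Draxin and Robo2 at or below 0.306, while in all nuclei Draxin is the only one of the 17 past the line.

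Shares of nuclei with a UMI followed the levels. In the GNP-like class, Epha3 was seen in 32.2% of nuclei in control and 81.9% in the cKO-labelled library, and after thinning each nucleus to 1000 UMIs in 12.3% of 511 and 48.3% of 116. In microglia-like nuclei, which should lack it, the shares were 7.55% and 3.95%. Draxin was seen in 60.7% and 17.2% of GNP-like nuclei, 26.6% and 4.31% after thinning, and in 1.89% and 1.32% of microglia-like nuclei. Epha6 was seen in 50.8% of control GNP-like nuclei and in 14.7% (8.78 to 22.4) of those of the other library. The latter share could not be told from the 12.5% (7.70 to 18.8) in microglia-like nuclei of that library. Median depths were 3715.5 and 3502 UMIs for GNP-like and 2923 and 2541 UMIs for microglia-like nuclei. Epha8 was seen in 7.42% and 37.9% of GNP-like nuclei, and in 0 of 53 and 1.97% of microglia-like nuclei, where 0 of 53 has an exact upper limit of 6.72%.

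The 116 GNP-like nuclei of the cKO-labelled library differed in GNP markers too. The summed level of the 9 GNP markers was 2194 and 2421 CPM. The cycle genes Mki67 (376 and 496 CPM) and Top2a (549 and 643 CPM) and the Hedgehog target gene Gli1 (60.3 and 75.7 CPM) and Gli2 (660 and 663 CPM) were present in both libraries. Atoh1, the factor that defines GNPs, had 16 UMIs in control and 0 in the other library, and Barhl1 stood at 134 and 6.88 CPM. The summed level of 10 granule neuron markers was 5349 and 7674 CPM, of which Unc5c, also one of the partner genes described last, made up 2345 and 3773 CPM and Reln 1699 and 2189 CPM. Of these 10 markers 3 were higher past 1.5-fold and 0 lower, and Cntn2 rose furthest, at 48.0 and 174 CPM. For 8 Bergmann glia markers the sum was 534 and 643 CPM, with Gdf10 at 9.31 and 101 CPM and Etv5 at 79.4 and 13.8 CPM. The summed level of 8 interneuron markers was 85.2 and 147 CPM, that of 6 GABAergic progenitor markers 19.6 and 9.18 CPM with Ptf1a at 0 in the cKO-labelled library, and that of 7 astrocyte markers 299 and 569 CPM, of which Slc1a2 made up 276 and 546 CPM. The part of these markers in the result was not tested. Restricted to GNP-like nuclei with a UMI of Pax6, a factor of the granule lineage, which left 439 and 102 nuclei and was an alternative chosen after seeing the data, the ratios were 5.85 for Epha3, 5.75 for Epha8, 0.129 for Epha6, 0.183 for Draxin and 0.319 for Robo2. In low-depth droplets, 1013 of control and 702 of the other library that were left out of the classes, Epha3 stood at 154 and 188 CPM, Epha6 at 370 and 296 CPM, Draxin at 116 and 75.6 CPM and Robo2 at 733 and 633 CPM. Robo2 in microglia-like nuclei stood at 318 and 62.1 CPM on 55 and 27 UMIs, a difference in the same direction as in GNP-like nuclei, and its part in that result was not tested.

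The 5 named clusters of the granule lineage differed in how many guidance genes passed the threshold. Clusters 13 (273 and 75 nuclei, led by cycle genes) and 18 (239 and 41 nuclei, led by Gli2) made up the GNP-like class. Clusters 9 (248 and 227 nuclei, led by Reln and Pax6), 4 (355 and 409 nuclei, led by Reln and Cadps2) and 0 (553 and 849 nuclei, led by Slit3 and Svep1) made up the granule neuron-like class, so the mix of clusters differed between the libraries. In cluster 13, 6 of 15 genes were higher and 6 lower, against 8.93% and 14.9% of all genes. In cluster 18, 2 of 11 were higher and 4 lower, against 13.7% and 19.3%. In cluster 9, 1 of 14 was higher and 6 were lower, against 5.68% and 6.92%. In cluster 4, 1 of 17 was higher and 5 were lower, against 5.1% and 4.71%. In cluster 0, 2 of 23 were higher and 5 lower, against 3.7% and 3.72%. Epha6 was lower past 1.5-fold in all 5 named clusters, by 5.30-fold in cluster 13, 15.5-fold in cluster 18 (on 4 UMIs in the cKO-labelled library, 6.03 to 57.3), 4.34-fold in cluster 9, 2.04-fold in cluster 4 and 2.75-fold in cluster 0. Cluster 3 (368 and 418 nuclei), which stayed unnamed and had Slit3 among its leading genes, held Epha6 at 177 and 190 CPM and Epha3 at 336 and 428 CPM, neither past the threshold. Outside the lineage it did not pass the threshold in unipolar brush cell-like (905 and 970 CPM), Purkinje cell-like (766 and 860 CPM) or interneuron-like nuclei (406 and 481 CPM).

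Epha3 was 6.16-fold higher in cluster 13, 4.94-fold in cluster 18, 3.21-fold in cluster 9 and 2.17-fold in cluster 4, and level in cluster 0 at 279 and 297 CPM. Epha8 was higher in cluster 13 (28.6 and 154 CPM), and in cluster 18 it had 16 and 17 UMIs (19.6 and 144 CPM), while in cluster 9 it stood at 24.3 and 26.1 CPM. In cluster 0 it was 1.62-fold lower (17.1 and 10.5 CPM on 58 and 43 UMIs, 1.07 to 2.46). Draxin was 5.93-fold lower in cluster 13, 3.49-fold in cluster 18 and 2.68-fold in cluster 9, and level in clusters 4 (49.5 and 46.4 CPM) and 0 (73.9 and 77.6 CPM). Robo2 was past the threshold in clusters 13 (2.68-fold lower) and 18 (4.21-fold lower), with ratios of 0.768, 0.897 and 0.774 in clusters 9, 4 and 0. Slit3 was 1.81-fold higher in cluster 13, but stood at 77.2 and 67.8 CPM in cluster 18.

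**Figure D4:**
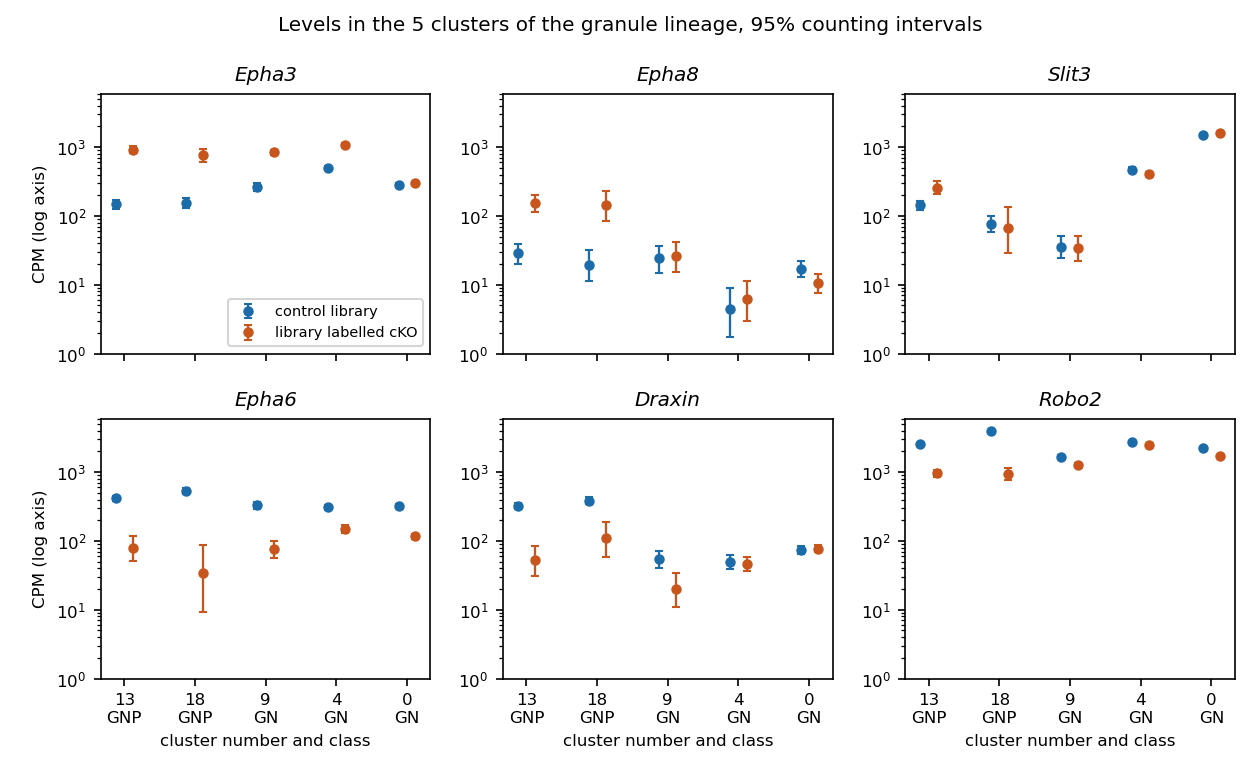
CPM (log axis) of 6 guidance genes in the GNP-like clusters 13 and 18 and the granule neuron-like (GN) clusters 9, 4 and 0 of the control library (blue) and the cKO-labelled library (orange), with 95% Poisson intervals. The points of Epha3 lie apart in clusters 13, 18, 9 and 4 and meet in cluster 0, while those of Epha6 lie apart in all 5 of these named clusters.

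In granule neuron-like nuclei as a whole, 26 genes had at least 50 UMIs, of which 3 were higher and 7 lower, against 3.26% higher and 4% lower among all genes. Epha3 stood at 337 and 554 CPM (1.65-fold higher, 1.56 to 1.74). Epha4 (5.46 and 10.7 CPM, 1.95-fold higher) and Ephb6 (3.41 and 6.12 CPM, 1.79-fold higher) were higher at low levels. Epha6 was 2.64-fold lower (320 and 121 CPM), Epha5 1.90-fold lower (365 and 192 CPM), Ephb2 1.56-fold lower (274 and 175 CPM) and Rgmb 1.96-fold lower (33.5 and 17.1 CPM). Efna3 (37 and 22 UMIs) and Slit1 (57 and 36 UMIs) were also past the threshold. With the marker gate Epha4 (1.44) and Ephb2 (0.734) fell short of it, and without doublet removal Ephb6 (1.31) and Efna3 (0.781) did, as did Efna3 in nuclei with a Pax6 UMI (0.713). Efna5 stood at 917 and 622 CPM, a ratio of 0.679 that fell short of it. Robo1 was 1.56-fold lower in the class (327 and 209 CPM), with 422 and 206 CPM in cluster 0, 174 and 174 CPM in cluster 4, and 235 and 310 CPM in cluster 9. Without doublet removal, where only 632 and 657 nuclei kept this class name, its ratio was 1.16. The summed level of the GNP markers in this class was 181 and 103 CPM, which moved with these results, and its part in them was not tested.

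In Purkinje cell-like nuclei 0 of 23 genes were higher and 2 lower, Draxin (30.9 and 18.9 CPM) and Rgma (13.9 and 7.31 CPM on 41 and 44 UMIs), against 2.36% higher and 4.44% lower among all genes. The ratio of Draxin there was 0.613, but 0.770 with the marker gate and 0.853 after thinning to 1000 UMIs. The ratio of Rgma was 0.525, but 0.875 with the gate, 1.26 without doublet removal and 2.44 after thinning to 1000 UMIs. In interneuron-like nuclei 0 of 27 were higher and 1 lower, Robo3 (32.0 and 17.0 CPM, 1.88-fold lower, 1.41 to 2.52), against 2.65% and 2.63%. In Bergmann glia-like nuclei 1 of 18 was higher and 2 were lower, against 5.09% and 4.27%. Slit3 stood there at 14.7 and 29.7 CPM (2.03-fold higher), Robo2 at 499 and 313 CPM (1.59-fold lower) and Ephb3 at 25.7 and 14.2 CPM (1.81-fold lower, 28 and 31 UMIs). Slit3 and Ephb3 fell short of the threshold when clustered at resolution 0.4 (ratios 1.47 and 0.751) and with the marker gate (1.48 and 0.839). The gate values join Bergmann glia-like and parenchymal astrocyte-like nuclei, the latter a class that no cluster was given. In unipolar brush cell-like nuclei 1 of 13, Robo1, was lower (159 and 104 CPM), against 4.53% higher and 4.04% lower among all genes. In cerebellar nuclei neuron-like nuclei 1 of 21 was higher, Epha8 (8.60 and 16.1 CPM), and 3 were lower, against 5.92% and 4.73%. Lower were Draxin (34.4 and 14.4 CPM), Slit3 (325 and 198 CPM) and Rgmb (63.0 and 39.5 CPM). The class joined clusters 15 (75 and 261 nuclei) and 21 (35 and 84 nuclei), so their mix differed between the libraries, and its part was not tested. In oligodendrocyte lineage-like nuclei 2 of 10 were higher, Epha4 (65.2 and 112 CPM) and Ephb1 (153 and 251 CPM), and 1 was lower, Efna5 (68.0 and 28.1 CPM), against 8.76% and 6.9%.

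Genes that work with these cues were examined as a list of 55 receptors, adaptors and effectors. Over whole libraries 0 were higher past 1.5-fold and 1 was lower, Dcc, the receptor of netrin-1 and draxin, at 3918 and 1855 CPM (2.11-fold lower, 2.09 to 2.14), against 5.26% higher and 5.81% lower among all genes. In GNP-like nuclei 51 had at least 50 UMIs, of which 5 (9.80%) were higher and 7 (13.7%) lower, shares near the 9.05% and 15.8% of all genes. Higher were the Robo-binding GTPase-activating protein gene Srgap1 (48.5 and 138 CPM, 2.84-fold), Nell2, which encodes a Robo3 ligand (151 and 386 CPM, 2.55-fold), the effector kinase gene Pak3 (1.96-fold), the Rac exchange factor gene Tiam1 (1.76-fold) and the netrin receptor gene Unc5c (2345 and 3773 CPM, 1.61-fold). Furthest down were Nell1 (120 and 22.9 CPM, 5.21-fold lower), the BMP receptor gene Bmpr1b (217 and 84.9 CPM, 2.55-fold lower), Chn2 (2.26-fold lower), Unc5b (52 and 6 UMIs) and Flrt2 (1.72-fold lower). Neo1, which encodes the RGM receptor neogenin, stood at 716 and 732 CPM. Dcc stood at 15871 and 10616 CPM in GNP-like nuclei, 1.49-fold lower and so just short of the threshold. In granule neuron-like nuclei 1 of 55 partner genes was higher and 2 were lower, against 3.26% and 4% of all genes. Dcc was 2.43-fold lower there (3266 and 1346 CPM), Nell1 2.12-fold lower (85.7 and 40.5 CPM) and Unc5b 1.70-fold higher (73.6 and 125 CPM). Past the threshold Dcc was lower in Purkinje cell-like and microglia-like nuclei too. It was not called in interneuron-like, Bergmann glia-like, unipolar brush cell-like, cerebellar nuclei neuron-like or oligodendrocyte lineage-like nuclei. Free RNA was not corrected, and its part in the Dcc ratios was not tested.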

How the data were processed

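Single-nucleus libraries were sequenced by the study from 1 pool of cerebella per group. The deposited values are raw UMI counts per gene and nucleus, which the authors made with Cell Ranger 7.0.1 on the mm10 reference. Whether intronic reads were counted is not given in the sources used here. Free RNA was not corrected. Nuclei over 25% mitochondrial UMIs and the top Scrublet scores (0.8% per 1000 barcodes, 189 and 386 nuclei) were removed with scanpy 1.11.5, as the automatic threshold marked 1 control nucleus. Seurat 5.3.0 integrated the libraries over 30 dimensions and clustered on 20 dimensions at resolution 0.8, without the 32 guidance and 55 partner genes. Of 24 clusters 19 were named, by a scoring rule set after they were seen: at least 3 class markers detected in 10% of nuclei and 2-fold above what the remaining clusters held at the median. Low-depth clusters, clusters led by genes of another class and names lost at resolution 0.4 stayed unnamed (1515 and 1446 nuclei). A rebuilt name may differ from the study's.

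UMIs were summed per class and library and divided by all UMIs of those nuclei (CPM). All 32285 genes entered the background shares. The script was tested on simulated data. The members, the partner list, the markers and the rule for naming genes (those past 1.5-fold with 50 UMIs, or highest in a class with at least 20 CPM and 20 UMIs in each library) were chosen with earlier results of these data known. Promoter letters came from RefSeq (GRCm38.p6), and gene coordinates from GENCODE for GRCm38. Alternatives were other clusterings, a marker gate per nucleus, thinning, doublets kept, other UMI minimums, nuclei with an Xist UMI, and median-of-ratios scaling.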

Additional observations from a re-analysis of the deposited data

Results flagged for a closer look

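Slit3 and Rgmb differed in opposite directions in different classes, past 1.5-fold each way. The CPM ratio of Slit3, the cKO-labelled library over control, was 1.77 in GNP-like and 2.03 in Bergmann glia-like nuclei but 0.610 in cerebellar nuclei neuron-like nuclei. The ratio of Rgmb was 1.80 in GNP-like nuclei, 0.511 in granule neuron-like nuclei and 0.626 in cerebellar nuclei neuron-like nuclei. With the marker gate Slit3 was at 1.24 in GNP-like and 1.48 in Bergmann glia-like nuclei, and in the latter at 1.47 with clustering at resolution 0.4, all short of 1.5-fold. In GNP-like nuclei Rgmb was at 1.17 with the gate and 0.777 after thinning to 1000 UMIs. The cerebellar nuclei neuron-like class joined 2 clusters in a mix that differed between the libraries, and the part of that mix was not tested. With 1 library per group these differences between classes were not tested.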

How the results depend on the processing

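With 1 library per group no test was made, and counting intervals do not cover differences between animals or preparations. No paired analysis was possible because each group was 1 library without a replicate number. Values whose distance from the reported one exceeded the counting interval are given as moved. Of the single-gene ratios, 216 values under the alternatives stayed within it with the same direction, 29 moved and 5 reversed. The reversed ratios were Efnb2 (0.464) and Rgmb (0.777) in GNP-like nuclei and Rgma in Purkinje cell-like nuclei (2.44) after thinning to 1000 UMIs, and Robo1 in granule neuron-like (1.16) and Rgma in Purkinje cell-like nuclei (1.26) without doublet removal. Without doublet removal the granule neuron-like class held 632 and 657 nuclei, against 1156 and 1485 in the reported setting. The Robo1 value there thus comes from a different set of nuclei. Why Rgma turned was not tested.

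Counts of genes past 1.5-fold moved by over 1.5 times as follows. After thinning they were 5 over whole libraries, 5 in granule neuron-like, 1 in Purkinje cell-like, 3 in interneuron-like and 1 in Bergmann glia-like nuclei, and 2 partner genes over whole libraries. With the marker gate they were 6 in granule neuron-like, 0 in Purkinje cell-like, 2 in interneuron-like and 5 in Bergmann glia-like nuclei. With the gate and each class weighted by its mean UMI share the count was 1. Nuclei with an Xist UMI gave 5 over whole libraries. A minimum of 20 UMIs gave 4 in Purkinje cell-like and 2 in interneuron-like nuclei, and a minimum of 100 UMIs gave 1 in Purkinje cell-like and 1 in Bergmann glia-like nuclei. Resolution 0.4 and keeping doublets each gave 1 in Bergmann glia-like nuclei. The causes were not tested. Shares of all genes past 1.5-fold are given here for the reported setting only. These counts therefore do not separate a change in the guidance genes from a change in all genes. The count in GNP-like nuclei stayed within 1.5 times of 12 under every alternative run, but not always with the same genes. With the marker gate it was 10, though Slit2, Epha7, Slit3, Rgmb and Efnb2 of the 12 fell short. After thinning it was 8, with Rgmb and Efnb2 reversed. In GNP-like nuclei ratios of Epha3 ranged from 2.50 to 5.85, of Epha6 from 0.129 to 0.260 and of Draxin from 0.126 to 0.241. Median-of-ratios scaling moved all log2 ratios by at most 0.04.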
